A study of Mus musculus with 18 samples.

Results

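Cells of the group R-Scm 12 h, harvested 12 h after a change from Rcm into Scm, were compared with Scm cells, which had no such change. MEFs are mouse embryonic fibroblasts, here a wild-type line. Scm is complete medium with S-FBS, a fetal bovine serum in which these cells are sensitive to ferroptosis, an iron-dependent death by lipid peroxidation, and Rcm is complete medium with R-FBS, a serum in which they resist it. Both groups were therefore harvested in the same serum, and they differed in the serum before it and in a recent exchange of medium. The titles also give 0 h for Scm and 12 h for R-Scm 12 h. Whether time in culture or time of harvest differed as well is not stated. The question was how far cells that had left R-FBS had come to look like cells cultured in Scm without that exchange. The 6 libraries, 3 of each group, were taken by their titles from the 18 of the series. Of the other groups, Rcm, S-Rcm 12 h (changed from Scm into Rcm) and R-Scm at 24 h were used for comparison. How long cells had been kept in Scm or Rcm was not given in the sources used here. The study calls the replicates of its cell culture experiments independent in general terms, and the labels do not say whether the libraries of a group came from separate cultures, so that p-values measure the spread between these libraries, part of which may be technical. No library of Scm cells given fresh Scm was analysed here. The serum history, the change of medium and any difference in time cannot be told apart in the comparison itself.

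The gene programmes described here answer to what a cell finds in its medium. Interferon-stimulated genes are antiviral and antigen-presentation genes that factors such as STAT2 and IRF9 switch on, and many of them are also expressed at a low tonic level in resting fibroblasts. Cholesterol synthesis genes are driven by the SREBP factors, which are held in the endoplasmic reticulum when sterols are plentiful and released when they are scarce, so that lipoproteins in serum lower them. ATF4 drives amino acid transport and synthesis when amino acids are short or proteins fold poorly. The circadian clock is a loop in which CLOCK and BMAL1, the latter encoded by Arntl, activate the Per and Cry genes, whose proteins repress them, and serum is a classical resetting cue of this loop in cultured fibroblasts. Matrix metalloproteinases cut collagen and other matrix proteins, and several are induced in fibroblasts by serum and cytokines.

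Promoters of a gene that carries each of the main programmes are shown so that the sites known for those programmes can be seen. Each is the 250 bases before the RefSeq start in GRCm38.p6, written 5′ to 3′ on the strand of the gene, and the capitals mark the matches to the motif named, searched on both strands.
Ifit1 (chr19:34640639-34640888, plus strand, the core of the interferon-stimulated response element, GAAA repeated after a gap of 2 bases): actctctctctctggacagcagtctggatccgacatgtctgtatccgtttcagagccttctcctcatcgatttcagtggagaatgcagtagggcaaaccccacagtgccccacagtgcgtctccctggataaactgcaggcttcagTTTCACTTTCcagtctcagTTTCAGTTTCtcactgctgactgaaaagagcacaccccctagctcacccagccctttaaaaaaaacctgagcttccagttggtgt
Hmgcs1 (chr13:119690101-119690350, plus strand, TCACNCCAC, the core of the sterol regulatory element): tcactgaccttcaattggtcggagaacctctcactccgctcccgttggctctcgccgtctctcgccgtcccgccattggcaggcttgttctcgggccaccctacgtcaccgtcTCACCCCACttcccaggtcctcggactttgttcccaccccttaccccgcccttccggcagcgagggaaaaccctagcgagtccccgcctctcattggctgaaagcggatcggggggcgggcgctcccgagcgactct
Ciart (chr3:95882229-95882478, minus strand, CACGTG, the E-box of the clock): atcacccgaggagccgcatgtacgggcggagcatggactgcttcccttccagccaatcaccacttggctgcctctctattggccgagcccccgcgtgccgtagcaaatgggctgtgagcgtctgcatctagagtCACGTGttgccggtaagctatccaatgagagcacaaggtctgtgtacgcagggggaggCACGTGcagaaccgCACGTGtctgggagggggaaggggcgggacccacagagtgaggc
Mmp13 (chr9:7272264-7272513, plus strand, TGANTCA, the AP-1 element): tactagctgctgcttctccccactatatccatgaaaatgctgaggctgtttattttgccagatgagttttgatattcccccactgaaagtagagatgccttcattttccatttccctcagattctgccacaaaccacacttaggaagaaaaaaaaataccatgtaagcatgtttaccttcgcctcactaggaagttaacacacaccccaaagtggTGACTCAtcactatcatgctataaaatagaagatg
Chac1 (chr2:119350992-119351241, plus strand, TGATGNAA, the core of the amino acid response element): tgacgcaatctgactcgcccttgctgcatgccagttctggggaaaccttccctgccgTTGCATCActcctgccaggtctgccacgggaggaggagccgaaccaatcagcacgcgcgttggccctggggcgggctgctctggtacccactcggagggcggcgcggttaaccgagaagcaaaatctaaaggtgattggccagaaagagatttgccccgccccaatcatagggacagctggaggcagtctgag

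Among the interferon-stimulated genes with a RefSeq promoter, 18 of 33 (54.5%) held the first motif, against 3.46% of 27025 promoters of the same length. The E-box was in 5 of 15 clock promoters (33.3%, against 6.86%), namely those of Per1, Cry1, Tef, Bhlhe41 and Ciart. The AP-1 element was in 4 of 12 metalloproteinase promoters (33.3%, against 7.82%), those of Mmp3, Mmp10, Mmp13 and Plaur. The amino acid response element was in 7 of 23 ATF4 promoters (30.4%, against 3.91%). The NF-kappaB element was in 6 of 15 chemokine promoters (40.0%, against 1.65%). The sterol element was in 1 of 16 cholesterol promoters (6.25%, against 1.22%), that of Hmgcs1, and in 0 of 11 promoters of SREBP factors and feedback genes. A match is a description of these letters, not evidence of binding.

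The 3 Scm libraries held 14534906 to 18717939 counts and the 3 R-Scm 12 h libraries 16502175 to 19240246. Replicate 3 of Rcm stood apart from the other 2 libraries of its group on the first principal component. Replicate 3 of R-Scm 12 h was the furthest out on the first (41.7 against 11.6 and 24.2) and stood apart on the second (27.6 against 11.6 and 6.95). In R-Scm 24 h replicate 3 stood apart on the first component and replicate 1 on the second. The counts of the main gene lists are given also without the library of R-Scm 12 h, Rcm or R-Scm 24 h that they touch. Transcripts of the mitochondrial genome took 2.11% to 2.36% of counts in Scm and 2.64% to 3.41% in R-Scm 12 h, and 15 of 15 of them had positive fold changes (median log2 fold change 0.50). In the main edgeR fit no mitochondrial transcript was called, and 10 had an unadjusted p under 0.05. DESeq2 called 1, edgeR on the compared groups alone 1, and edgeR without R-Scm 12 h replicate 1 called 3. Fibroblast markers were abundant, with a summed level of 10892 to 11336 CPM (counts scaled to library size by TMM) in Scm and 10441 to 11350 in R-Scm 12 h, with 12 of 13 tested and 2, Thy1 and Dcn, called higher, of which Dcn lost the call without R-Scm 12 h replicate 3. Each sum runs over the markers tested. Those tested were 2 of 9 macrophage markers, 2 of 8 endothelial markers and 1 of 9 skeletal muscle markers, Acta1. For neural, epithelial and adipocyte markers they were 6 of 9, 2 of 9 and 3 of 7. Macrophage markers summed to 14.8 to 17.6 and 15.6 to 19.3 CPM, with Adgre1 and Tyrobp at 0 in all 6 libraries. Endothelial markers summed to 0.0693 to 0.642 and 0.492 to 2.94 CPM, with Erg and Cldn5 at 0 and Kdr called higher, and skeletal muscle markers to 1.11 to 1.87 and 2.16 to 5.15 CPM, with Myod1 and Myog at 0 and Acta1 called higher. Neural markers summed to 205 to 210 and 166 to 187 CPM, with Rbfox3 and Sox10 at 0 and Stmn2 called lower. The calls of Kdr, Acta1 and Stmn2 were lost without R-Scm 12 h replicate 3. Epithelial markers summed to 6.15 to 8.60 and 7.92 to 12.3 CPM with Esrp1 at 0, and adipocyte markers to 5.63 to 7.14 and 6.28 to 7.66 CPM with Adipoq and Plin1 at 0. Their part in the results was not tested. In bulk RNA, fewer cells of a type and less RNA per cell cannot be told apart.

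Most of the genes that separated R-Scm 12 h from Scm were higher in R-Scm 12 h. A gene was called where its absolute log2 fold change passed 0.58 and its Benjamini-Hochberg adjusted p in edgeR's quasi-likelihood test was under 0.05. Of 15381 genes tested, 676 were called (4.4%), of which 477 were higher in R-Scm 12 h (3.1% of the genes tested) and 199 lower (1.29%). The 3 and 3 libraries did not overlap in 36.8% of the genes tested. A rise or fall here is a level above or below the group compared, not a change from the serum that the cells had left. The rises were larger than the falls, with a median absolute log2 fold change of 1.14 against 0.756. Past 4-fold there were 106 rises and 9 falls, and past 8-fold 57 rises and 2 falls. Of the 57, 22 were in the list of interferon-stimulated genes. Without R-Scm 12 h replicate 3 the number of calls was 353, of which 245 were higher and 108 lower, and it was 390 without Scm replicate 1, 422 without Scm replicate 2 and 437 without Scm replicate 3 among the fits that lowered it.

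**Figure D1:**
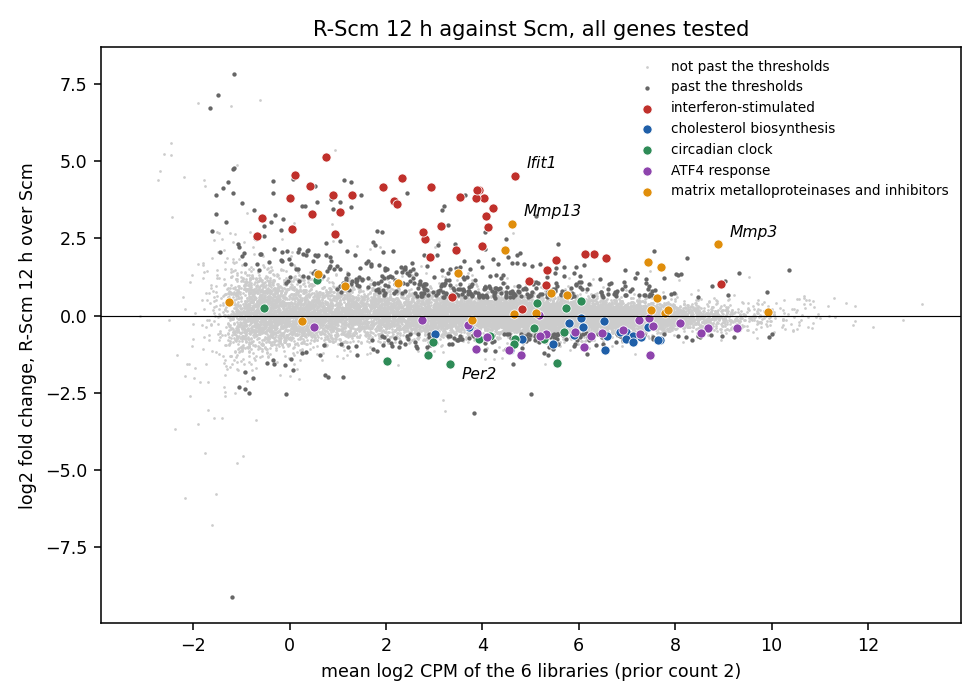
Log2 fold change of R-Scm 12 h over Scm (vertical axis) against the mean log2 CPM of the 6 libraries (horizontal axis) for each of the 15381 genes tested, with 5 gene lists in colour. Interferon-stimulated genes lie above 0 over the whole range of levels, cholesterol genes lie a little below 0 at high levels, and Mmp13 and Mmp3 lead the metalloproteinases.

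Interferon-stimulated genes were far higher in R-Scm 12 h. Of 42 tested, 41 rose in R-Scm 12 h, and their median log2 fold change was 3.20 against 0.0028 over all genes tested. Ifit1, which binds foreign 5′ ends of RNA, was at 4.71, 4.99 and 6.32 CPM in Scm and at 95.5, 132 and 141 CPM in R-Scm 12 h, and the groups lay far apart. Its log2 fold change was 4.53 (SE 0.45, adjusted p = 5e-05), a 23.1-fold rise. Oas2, one of the synthetases that activate RNase L, was at 0.428, 0.208 and 0.0687 CPM in Scm and at 7.11, 9.31 and 10.6 CPM in R-Scm 12 h (log2 fold change 5.14, SE 0.78, adjusted p = 0.000974). Mx2, an antiviral GTPase, was at 1.18, 0.901 and 0.962 against 19.4, 19.5 and 29.2 CPM (4.46, SE 0.55). In none of these genes did the groups come near each other.

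The members spanned the layers of the pathway. Among the sensors of viral RNA, Ddx58, encoding RIG-I, was at 32.6, 35.6 and 37.4 CPM in Scm and at 116, 146 and 163 CPM in R-Scm 12 h (log2 fold change 2.01, SE 0.30), and Ifih1, encoding MDA5, was at or below 0.588 CPM in Scm and at 4.82, 5.92 and 5.52 CPM in R-Scm 12 h (4.21, SE 0.71). Transcription factors of the pathway were called higher too. Stat2 was at 24.1, 23.6 and 24.1 against 63.9, 71.5 and 66.6 CPM (1.49, SE 0.30), Irf9 rose by a log2 fold change of 1.80 (SE 0.27) and Irf7 by 2.48 (SE 0.32). Isg15, the ubiquitin-like modifier, was at 6.47, 5.68 and 7.01 against 54.5, 43.5 and 41.8 CPM (2.86, SE 0.31). Usp18, which removes it and restrains the receptor, was at 3.58, 4.09 and 3.02 against 51.3, 57.3 and 71.5 CPM (4.07, SE 0.50). Modifier and negative regulator were both called higher. The chemokine Cxcl10 was at 5.72, 4.30 and 6.46 against 55.7, 62.5 and 68.9 CPM, with the smallest adjusted p of the list (log2 fold change 3.50, SE 0.19, adjusted p = 3.08e-08).

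At the abundant end of the list, B2m, the light chain of MHC class I, was at 344, 351 and 352 CPM in Scm and at 613, 687 and 816 CPM in R-Scm 12 h (log2 fold change 1.01, SE 0.15), and the peptide transporter Tap1 rose by 2.13 (SE 0.23). Irf1 was the member not called, at 23.5, 24.7 and 30.2 against 28.5, 36.6 and 26.6 CPM (log2 fold change 0.23, SE 0.20, adjusted p = 0.513), with overlapping groups. Irgm2 overlaps Igtp, and Psmb9 overlaps Tap1, so that their counts may be shared, and both lost the call under several alternatives. Without R-Scm 12 h replicate 3, 38 of 42 members were still called. The interferon genes themselves were not detectable at a useful depth. Ifnb1 had counts of 0, 0 and 0 in Scm, where 0 allows up to 3 counts over the group, and of 2, 2 and 1 in R-Scm 12 h, and it was not tested. Ifng, Ifna4 and Ifnl2 had 0 counts in all libraries.

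The level in R-Scm 12 h was set beside that of the cells it came from. The mean log2 CPM over the list was 1.61 to 1.67 in the Scm libraries, 3.81 to 4.11 in Rcm and 4.38 to 4.67 in R-Scm 12 h. In Rcm against Scm 39 of 42 were called higher (2.3% of all genes called), also without Rcm replicate 3, and in R-Scm 12 h against Rcm 3 were called higher (2.74% of all genes called) with positive values for 37 of 42 and a median of 0.56, or 2 called without Rcm replicate 3. These comparisons share libraries with the main one, and they are given side by side only. The R-Scm 12 h libraries all lay above the Rcm libraries in this mean, and further above the Scm libraries.

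**Figure D2:**
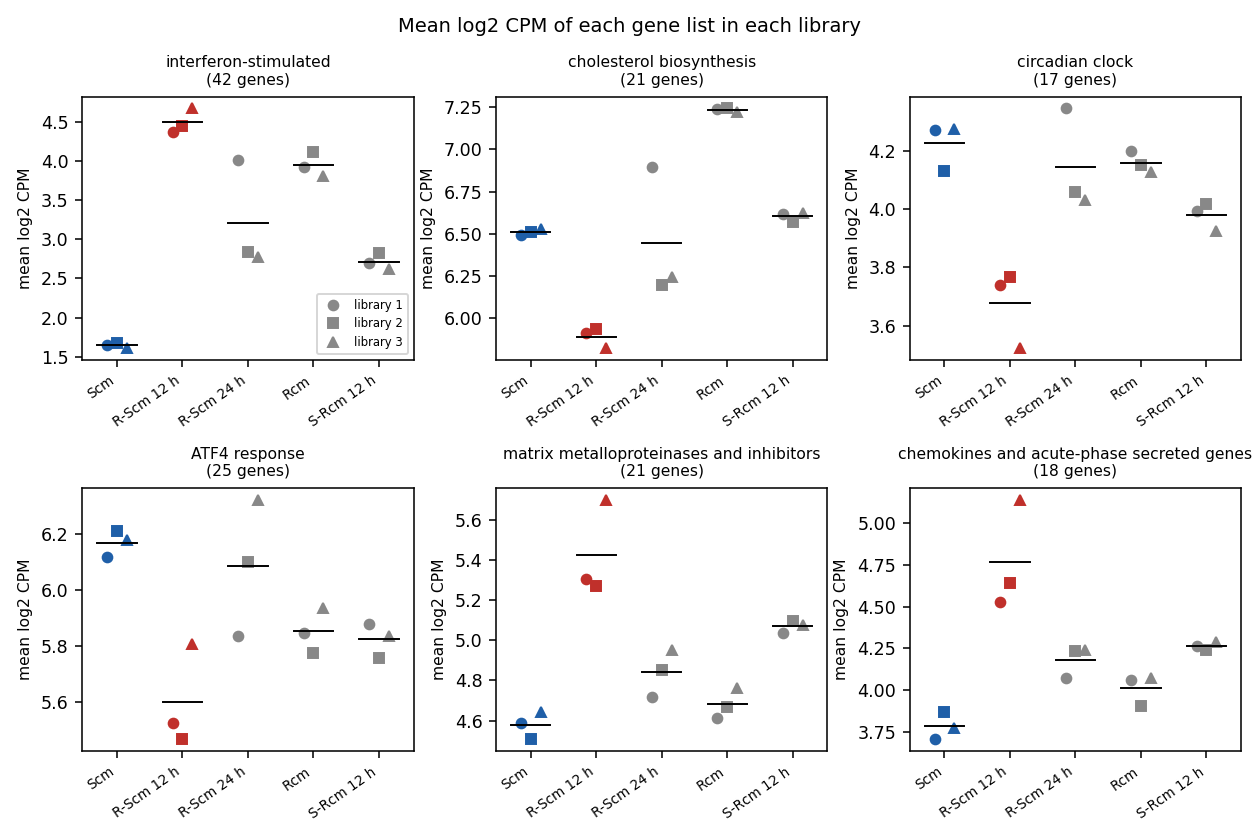
Mean log2 CPM (vertical axis) of 6 gene lists in each library of 5 groups (horizontal axis), with a circle, a square and a triangle for libraries 1, 2 and 3 and a line at the group mean. In R-Scm 12 h the interferon list sits at 4.38 to 4.67 against 1.61 to 1.67 in Scm, the cholesterol, clock and ATF4 lists sit below their Scm libraries, the metalloproteinase and chemokine lists above them, and R-Scm 24 h replicate 1 lies apart from the other 2 in the interferon and cholesterol lists.

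Cholesterol synthesis genes were lower in R-Scm 12 h than in Scm. Of 21 tested, 12 fell and the other 9 were not called, the median log2 fold change was -0.66, all 21 values were negative, and in 20 the 3 R-Scm 12 h libraries lay below the 3 Scm libraries. The number of calls was 7 without R-Scm 12 h replicate 3 (median -0.60) and 7 without Scm replicate 2. Insig1, which keeps SREBP in the endoplasmic reticulum and is itself an SREBP target, was at 110, 110 and 112 CPM in Scm and at 46.1, 50.1 and 43.2 CPM in R-Scm 12 h, a fall of 2.38-fold (log2 fold change -1.25, SE 0.19, adjusted p = 0.000957). Fdps, farnesyl diphosphate synthase, was at 188, 198 and 180 against 106, 103 and 101 CPM (-0.87, SE 0.15, adjusted p = 0.00243). The replicates of both genes were close together and the groups did not touch.

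Both the early mevalonate steps and the late sterol steps were represented. Hmgcs1 was at 301, 254 and 261 against 171, 175 and 127 CPM (log2 fold change -0.79, SE 0.21, adjusted p = 0.0337). It lost the call without R-Scm 12 h replicate 3. Mvd, mevalonate diphosphate decarboxylase, was at 34.2, 36.1 and 35.4 against 19.8, 16.6 and 11.8 CPM (-1.13, SE 0.21). Lss, which closes the sterol rings, was at 146, 116 and 148 against 64.2, 63.1 and 63.2 CPM (-1.11, SE 0.21), and Sqle, squalene epoxidase, at 266, 257 and 268 against 149, 152 and 160 CPM (-0.78, SE 0.14). All of these were lower in each R-Scm 12 h library than in any Scm library. Acat2 was at 132, 157 and 167 against 107, 99.9 and 110 CPM and was not called (-0.52, adjusted p = 0.116). It shares 40.7% of its 75-base stretches with other genes, so that its counts are uncertain.

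Among the 16 SREBP factors and feedback genes 3 fell. Besides Insig1 these included Srebf2 at 470, 446 and 438 against 306, 308 and 240 CPM (log2 fold change -0.66, SE 0.14), which lost its call without R-Scm 12 h replicate 3. Srebf1 was at 89.9, 94.7 and 93.5 against 80.9, 74.3 and 69.8 CPM and was not called (-0.31, SE 0.10, adjusted p = 0.0862). Fatty acid genes moved less, with 2 of 26 called, 1 of them without R-Scm 12 h replicate 3 or without Scm replicate 1, and a median of -0.06. Fasn, fatty acid synthase, fell from 792, 689 and 804 to 467, 514 and 426 CPM (-0.70, SE 0.11), and Lpin1, a phosphatidate phosphatase, from 46.5, 37.9 and 37.9 to 20.1, 19.8 and 19.1 CPM (-1.05, SE 0.24). Scd1, which makes monounsaturated fatty acids, was at 283, 257 and 272 against 200, 222 and 221 CPM and was not called (-0.34, SE 0.19, adjusted p = 0.267).

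The cholesterol list came down from a higher level. Its mean log2 CPM was 7.22 to 7.24 in the Rcm libraries, 6.49 to 6.53 in Scm and 5.82 to 5.93 in R-Scm 12 h. Fdps was at 384, 392 and 389 CPM in Rcm, above its Scm level in each library. Of the 21 genes, 13 were called higher in Rcm against Scm and 19 lower in R-Scm 12 h against Rcm, or 10 and 18 without Rcm replicate 3, 2 comparisons that share libraries with the main one. R-Scm 12 h thus lay on the far side of Scm from Rcm. The falls against Scm were modest in size. A test against a 1.5-fold change (edgeR's glmTreat) left 0 of the 12 cholesterol calls and 28 of the 41 interferon calls, while the main test had 16 cholesterol genes at an unadjusted p under 0.05 and DESeq2 called 12.

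**Figure D3:**
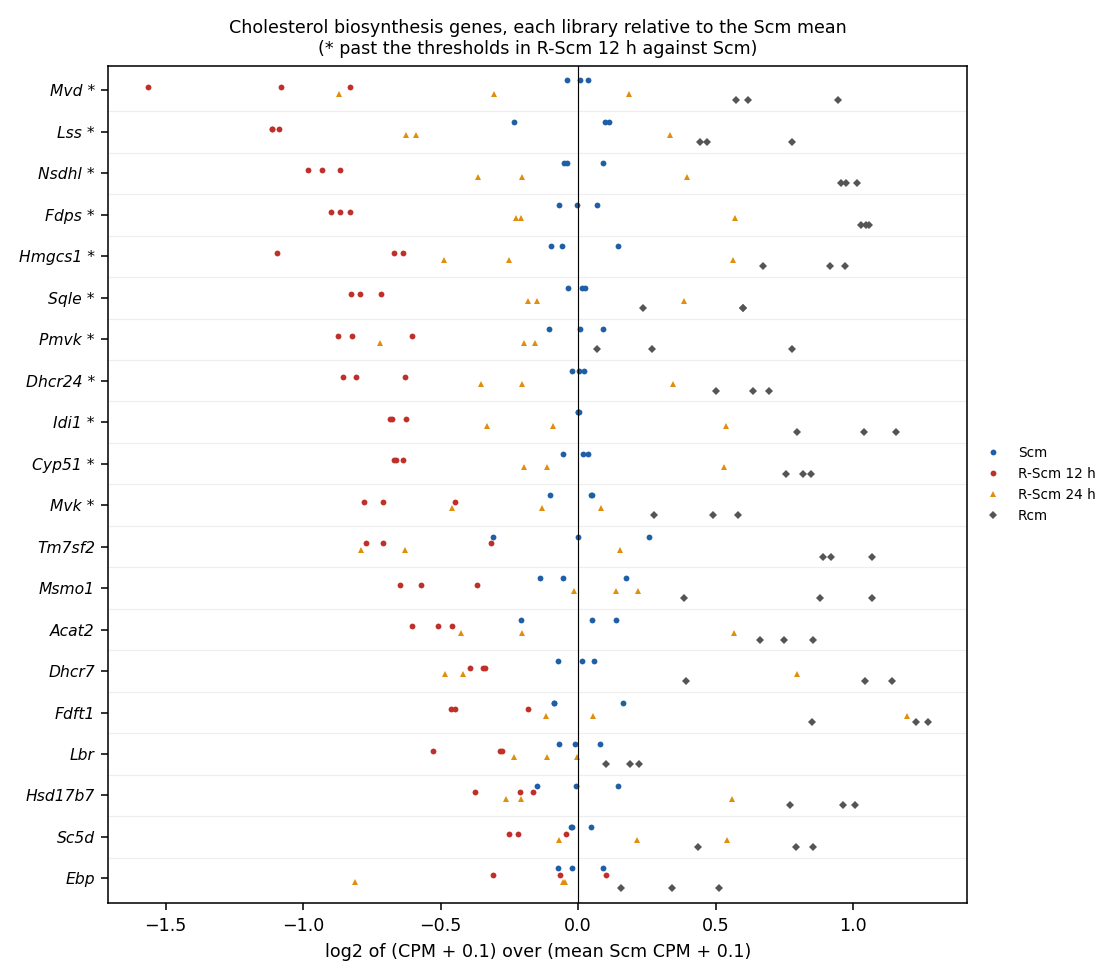
Log2 of CPM plus 0.1 over the mean Scm value plus 0.1 (horizontal axis) for 20 cholesterol synthesis genes (vertical axis), with 1 point for each of the 3 libraries of Rcm, Scm, and R-Scm at 12 h and at 24 h. Asterisks mark genes called in R-Scm 12 h against Scm. The R-Scm 12 h points lie left of the Scm points without overlap in 19 of the 20 genes, the Rcm points lie to the right, and 1 of the 3 R-Scm 24 h libraries often lies apart from the other 2 on the Rcm side.

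Clock genes were mostly lower in R-Scm 12 h, with members in both directions. Of 17 tested, 8 fell and 1 rose, and the median log2 fold change was -0.76. Per2, a repressor of the loop, was at 16.9, 16.0 and 19.4 CPM in Scm and at 6.24, 7.72 and 3.68 CPM in R-Scm 12 h (log2 fold change -1.56, SE 0.25, adjusted p = 0.00119). Ciart, another repressor, whose promoter above holds 3 E-boxes, was at 6.79, 6.72 and 6.39 against 2.68, 2.52 and 1.90 CPM (-1.48, SE 0.17, adjusted p = 8.47e-05). Tef, an output factor of the clock, was at 83.8, 85.1 and 80.2 against 33.6, 37.4 and 14.2 CPM (-1.54, SE 0.27). In each of the 3 genes the R-Scm 12 h libraries lay below the Scm libraries, with replicate 3 the lowest.

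Per1 was at 36.3, 32.1 and 35.5 against 20.0, 21.0 and 14.1 CPM (log2 fold change -0.91, SE 0.14), and Cry1 and Cry2 fell by -0.77 each on the log2 scale (SE 0.15 and 0.14). Bhlhe40 and Bhlhe41, which compete for E-boxes, had values of -0.76 (SE 0.17) and -0.67 (SE 0.14). On the activating side, Arntl was at 30.6, 30.8 and 30.4 against 40.9, 41.7 and 38.8 CPM, a difference without overlap that did not pass the fold threshold (0.40, SE 0.12, adjusted p = 0.0491). The member that rose was Hlf, at 1.02, 0.624 and 1.17 against 1.64, 2.68 and 1.90 CPM (1.14, SE 0.29), and it lost the call without R-Scm 12 h replicate 3, while 8 members were called lower in that fit too. Dbp was at 10.5, 12.0 and 12.3 against 5.75, 5.56 and 2.82 CPM and was not called (-1.29, SE 0.41, adjusted p = 0.0668). The hour of day of the harvests was not given in the sources used here.

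**Figure D4:**
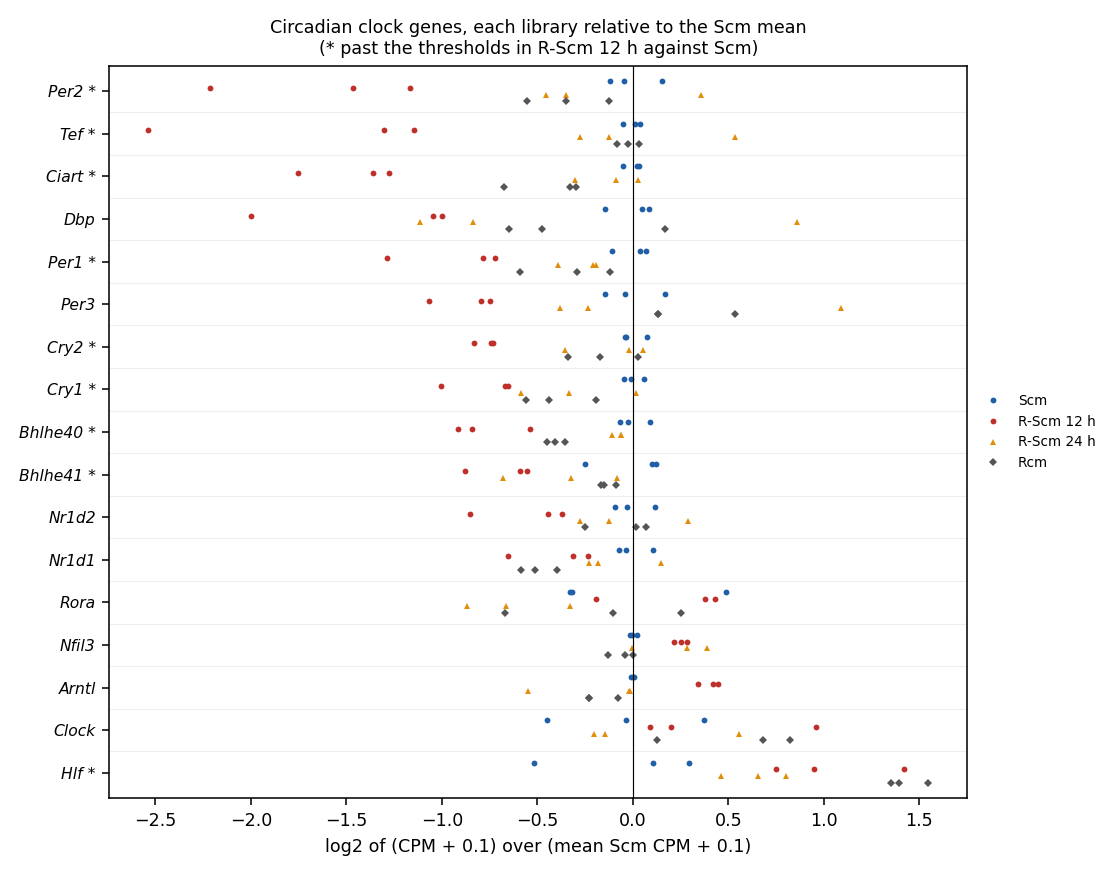
Log2 of CPM plus 0.1 over the mean Scm value plus 0.1 (horizontal axis) for each of the 17 clock genes tested (vertical axis), with 1 point for each of the 3 libraries of Rcm, Scm, and R-Scm at 12 h and at 24 h. Asterisks mark genes called in R-Scm 12 h against Scm. The R-Scm 12 h points lie left of Scm without overlap in 12 genes, among them Per2, Tef and Ciart, and right of Scm without overlap in 3.

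ATF4-response genes were lower in R-Scm 12 h. Of 25 tested, 9 fell, the other 16 were not called, and the median log2 fold change was -0.55, with 24 negative values. Atf5, a factor of the response itself, was at 281, 285 and 270 CPM in Scm and at 115, 96.1 and 131 CPM in R-Scm 12 h (log2 fold change -1.29, SE 0.18, adjusted p = 0.000349). Pck2, the mitochondrial phosphoenolpyruvate carboxykinase, was at 102, 98.8 and 95.6 against 48.8, 44.7 and 52.7 CPM (-1.02, SE 0.13, adjusted p = 0.000134). Chac1, which degrades glutathione, was at 30.3, 40.4 and 33.9 against 14.7, 12.2 and 21.5 CPM (-1.12, SE 0.20). The levels of these genes in R-Scm 12 h were below every Scm library.

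Trib3, a pseudokinase, was at 19.8, 25.0 and 21.4 against 7.66, 6.74 and 16.6 CPM (log2 fold change -1.10, SE 0.26), and here and in several other members R-Scm 12 h replicate 3 was nearest to Scm. Asns, asparagine synthetase, was at 89.8, 98.2 and 102 against 51.9, 53.9 and 77.4 CPM (-0.67, SE 0.16), and Ddit3, encoding CHOP, at 48.7, 51.6 and 47.5 against 31.9, 30.0 and 36.1 CPM (-0.59, SE 0.13). Slc7a5, a transporter of large neutral amino acids, fell by 0.61 on the log2 scale (SE 0.13). Leaving out single libraries moved the number of calls in both directions, to 12 without R-Scm 12 h replicate 3 (median -0.67), but to 4 without replicate 1 and 3 without replicate 2 of that group, and to 5 without Scm replicate 2, with medians of -0.48, -0.47 and -0.55. Atf4 mRNA itself was at 248, 413 and 247 against 288, 273 and 207 CPM and was not called (-0.24, SE 0.31, adjusted p = 0.664), with overlapping groups. Slc7a11, the cystine importer that feeds glutathione synthesis and restrains ferroptosis, was at 30.4, 47.4 and 54.8 against 12.8, 19.0 and 22.7 CPM, without overlap but short of the threshold (-1.28, SE 0.40, adjusted p = 0.0668).

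Among 24 ferroptosis defence genes Nqo1, a quinone reductase, was the member called (4.17%, near the 4.4% over all genes tested). It rose from 134, 150 and 141 to 204, 219 and 261 CPM (log2 fold change 0.69, SE 0.11, adjusted p = 0.00122). Gpx4, the lipid hydroperoxidase, was at 108, 124 and 119 against 113, 100 and 107 CPM (-0.13, SE 0.08, adjusted p = 0.328). It shares 55.3% of its 75-base stretches with other genes, and its counts are uncertain. Tfrc, the transferrin receptor, was at 321, 317 and 332 against 352, 347 and 428 CPM (0.22, SE 0.13), and Acsl4, which loads polyunsaturated fatty acids onto CoA, at 141, 129 and 142 against 168, 177 and 157 CPM (0.29, SE 0.13). Neither was called. Ptgs2, encoding cyclooxygenase-2, rose from 191, 163 and 187 to 329, 346 and 693 CPM (1.34, SE 0.30, adjusted p = 0.0135) and lost the call without R-Scm 12 h replicate 3. It belongs to a list of polyunsaturated fatty acid and ether phospholipid genes, of which 14 were tested, 1 called higher and 1 lower. Without that library the list had 0 higher calls and 1 lower. Apoh, encoding apolipoprotein H, had at most 7 counts in a library and was not tested.

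Metalloproteinases and their inhibitors rose in part. Of 21 tested, 8 rose, and the median log2 fold change was 0.65. Mmp13, a collagenase, was at 8.88, 8.80 and 8.45 CPM in Scm and at 55.9, 60.7 and 90.4 CPM in R-Scm 12 h, a 7.91-fold rise (log2 fold change 2.98, SE 0.49, adjusted p = 0.00214). Mmp3, stromelysin, was at 206, 224 and 223 against 864, 874 and 1488 CPM (2.30, SE 0.35, adjusted p = 0.0011). Both lay far above Scm in each library, and replicate 3 was the highest. Mmp10 was at 11.1, 9.71 and 11.2 against 35.6, 38.6 and 66.8 CPM (2.14, SE 0.47). Timp3, a tissue inhibitor, was at 127, 115 and 128 against 278, 311 and 521 CPM (1.59, SE 0.34). Mmp2 and Mmp14, both abundant in fibroblasts, were not called, with log2 fold changes of 0.16 (SE 0.09) and 0.08 (SE 0.10). The number of calls depended on single libraries, since it was 3 without R-Scm 12 h replicate 3, where Mmp10 and Timp3 lost the call, 3 without Scm replicate 1 or 2, and 4 without Scm replicate 3.

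Chemokines and acute-phase secreted genes rose in 7 of 18 cases, with a median log2 fold change of 0.78. Ptx3, a soluble pattern receptor, was at 87.2, 100 and 93.5 against 315, 310 and 570 CPM (2.09, SE 0.23, adjusted p = 7.27e-05). Ccl7 was at 35.8, 43.3 and 39.9 against 97.1, 109 and 163 CPM (1.63, SE 0.17), and Cxcl1 at 4.39, 3.33 and 3.99 against 13.6, 14.3 and 30.0 CPM (2.30, SE 0.26). Each R-Scm 12 h library exceeded each Scm library in these genes. Il6 had 0 counts in the 3 Scm libraries and 13, 14 and 14 counts in R-Scm 12 h, at least 12.1-fold higher when the floor is 3 counts over the group. The list median was 0.78 also with Il6 at that bound, and 7 members were called without R-Scm 12 h replicate 3.

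Targets of SRF and YAP, which report tension and spreading of the cell, rose in 7 of 22 cases (median log2 fold change 0.41). Ccn2, encoding connective tissue growth factor, was at 159, 168 and 161 against 491, 466 and 817 CPM (1.86, SE 0.21, adjusted p = 7.54e-05), and Edn1, endothelin 1, at 12.9, 13.2 and 14.1 against 41.3, 44.2 and 72.5 CPM (1.97, SE 0.18, adjusted p = 1.56e-05). Thbs1, thrombospondin 1, was at 812, 753 and 841 against 1794, 2042 and 2886 CPM (1.48, SE 0.18). These 3 kept the call without R-Scm 12 h replicate 3, where 4 of the 7 calls remained and the list median was 0.16. Among 21 p53 targets 5 rose, led by Fas, a death receptor, at 7.22, 9.71 and 7.90 against 16.9, 19.0 and 23.0 CPM (1.25, SE 0.19), with a list median of 0.14. There were 3 p53 calls without R-Scm 12 h replicate 3, without Scm replicate 2 or without Scm replicate 3.

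Other groups had a few members called. Over all genes tested 3.1% were called higher and 1.29% lower, and counts near these shares say little about a list. Higher and lower calls numbered 4 and 2 of 22 for BMP and TGF-beta targets, 2 and 3 of 32 for immediate early genes, 2 and 3 of 11 for retinoid genes, 2 and 1 of 31 for hypoxia and glycolysis, 2 and 1 of 21 for PPAR targets, 2 and 0 of 18 for Wnt ligands and feedback genes, 2 and 0 of 22 for collagens, and 0 and 2 of 15 for glucocorticoid-responsive genes. Without R-Scm 12 h replicate 3 these became 3 and 1, 0 and 4, 2 and 0, 2 and 1, 1 and 0, 0 and 0, 1 and 0, and 0 and 1 in the same order. Aldh1a1, a retinaldehyde dehydrogenase, rose from 2.89, 3.33 and 3.02 to 7.39, 7.82 and 11.0 CPM (adjusted p = 0.00139), and Cyp26b1, which degrades retinoic acid, from 7.33, 6.03 and 5.98 to 13.6, 15.4 and 11.2 CPM (log2 fold change 1.05, SE 0.18), while Rara, Dhrs3 and Crabp2 of the same list were called lower, a call that all 3 lost without R-Scm 12 h replicate 3. Egr3, an immediate early factor, fell from 47.1, 45.3 and 39.5 to 11.0, 10.3 and 23.5 CPM (-1.56, SE 0.30), and Hey1, a target of BMP and Notch, from 8.29, 9.98 and 8.45 to 4.32, 5.25 and 3.25 CPM (-1.05, SE 0.22). Ndrg1, a hypoxia-responsive gene, fell from 102, 102 and 91.7 to 56.5, 53.6 and 59.2 CPM (-0.80, SE 0.09, adjusted p = 6.87e-05). Lists of mitosis, LXR target and selenoprotein genes had 0 calls in the main edgeR fit and 0 in DESeq2. In the edgeR fit 2 of 28, 2 of 8 and 5 of 19 members had an unadjusted p under 0.05. For selenoproteins, edgeR on the compared groups alone called 1 higher, and edgeR without R-Scm 12 h replicate 1 called 1 lower. Of 28 DNA replication genes 1 was called, Ccne2 (0.69, SE 0.18), and it lost the call without R-Scm 12 h replicate 3.

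Among the largest falls was 1 that depended on the annotation. Nnt, the mitochondrial transhydrogenase, was at 47.6, 37.7 and 40.4 CPM in Scm and at 4.49, 4.63 and 5.03 CPM in R-Scm 12 h (log2 fold change -3.15, SE 0.63), but the annotation has a second identifier of that name at almost the same place, at 61.4, 79.1 and 76.6 against 93.8, 99.4 and 91.9 CPM. Summed over both identifiers, Nnt was at 114 ± 4.58 CPM (SD, n = 3) in Scm and 99.7 ± 3.77 CPM (SD, n = 3) in R-Scm 12 h and was not called (log2 fold change -0.20, edgeR adjusted p = 0.203). Several of the other large falls were of low genes, such as Acvr2b, an activin receptor, at 2.73, 1.32 and 2.47 against 0.492, 0.514 and 0.0613 CPM (-2.56, SE 0.46).

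The opposite exchange also has a change of medium on the treated side, and it shares no library with the main comparison. S-Rcm 12 h was set against Rcm, both harvested in R-FBS, and 134 genes were called (0.871%), 65 of them higher (0.423%) and 69 lower (0.449%). The libraries of these 2 groups did not overlap in 20.2% of genes. Of these, 63 were also called in R-Scm 12 h against Scm, which is 9.32% of the 676 and 47.0% of the 134. In 10 of the 63 both exchanges had higher values, and in 9 both had lower values. In 39 R-Scm 12 h was higher and S-Rcm 12 h lower, and in 5 the reverse held. The difference between the 2 contrasts was itself called for 472 genes (3.07%), positive for 321 (2.09%) and negative for 151 (0.982%), with 293 of the 472 among the 676. Without Rcm replicate 3 the difference was called for 1598 genes and S-Rcm 12 h against Rcm for 209.

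Mmp13, Mmp3, Fdps and Nqo1 were called on the same side in both exchanges, each against the culture kept in the serum of harvest. Mmp13 was at 8.86, 9.38 and 6.76 CPM in Rcm and at 46.1, 52.6 and 43.1 CPM after the exchange into R-FBS. Its log2 fold change of 2.51 (adjusted p = 0.0242) stood beside 2.98 in R-Scm 12 h, and the difference of 0.47 was not called (SE 0.66, adjusted p = 0.691). Mmp3 had 2.11 beside 2.30. Of the 21 metalloproteinase and inhibitor genes, 3 were called higher and 1 lower in S-Rcm 12 h against Rcm (median 0.17). Their difference between the contrasts was called for 4. Adamts1 of this list went the other way, with 0.71 in R-Scm 12 h and -0.85 in S-Rcm 12 h. Without Rcm replicate 3 the list had 2 higher and 0 lower calls, and 4 in the difference. For Fdps the value was -0.96 beside -0.87, with levels of 197, 193 and 210 CPM in S-Rcm 12 h. Its mean in Scm, which the S-Rcm 12 h cells had left, was 188 CPM. Of the 21 cholesterol genes 6 were called lower in S-Rcm 12 h than in Rcm (median -0.67), 6 also without Rcm replicate 3. In the difference edgeR called 0 of the 21, with 2 at an unadjusted p under 0.05. The list mean log2 CPM was 6.57 to 6.62 in S-Rcm 12 h, beside 6.49 to 6.53 in Scm. After that exchange the list thus had not come down from its earlier level, whereas in R-Scm 12 h it lay below both Rcm and Scm. Nqo1 was likewise higher in both, with 344, 330 and 337 CPM in S-Rcm 12 h against 160, 172 and 156 CPM in Rcm.

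Against the culture kept in the serum of harvest, interferon-stimulated genes were higher in R-Scm 12 h and mostly lower in S-Rcm 12 h. In S-Rcm 12 h against Rcm 18 of 42 were called lower, with a median of -1.29. The difference between the contrasts was called for 40 of 42. Without Rcm replicate 3 these counts were 15 and 40. Ifit1 was at 74.4, 82.0 and 43.1 CPM in Rcm and at 18.7, 23.6 and 15.1 CPM in S-Rcm 12 h, and its difference between the contrasts was 6.32 on the log2 scale. The S-Rcm 12 h cells came from Scm, where the mean of Ifit1 was 5.34 CPM. The list mean log2 CPM was 1.61 to 1.67 in Scm, 2.63 to 2.82 in S-Rcm 12 h and 3.81 to 4.11 in Rcm. In S-Rcm 12 h the list thus lay between Scm and Rcm, above the serum that the cells had left. ATF4 genes fell in R-Scm 12 h with a difference called for 5 of 25, or 8 without Rcm replicate 3, Atf5 not among them (-0.84, adjusted p = 0.0698). Of the clock genes edgeR called 0 in S-Rcm 12 h against Rcm, with 2 of 17 at an unadjusted p under 0.05, and the difference between the contrasts was called for Ciart (-1.36, adjusted p = 0.00374) and no other of the 17, whereas without Rcm replicate 3 it was called for Ciart, Hlf and Nr1d1. For Per2 it was -0.99 (adjusted p = 0.114), so that its fall was not shown to differ between the exchanges.

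**Figure D5:**
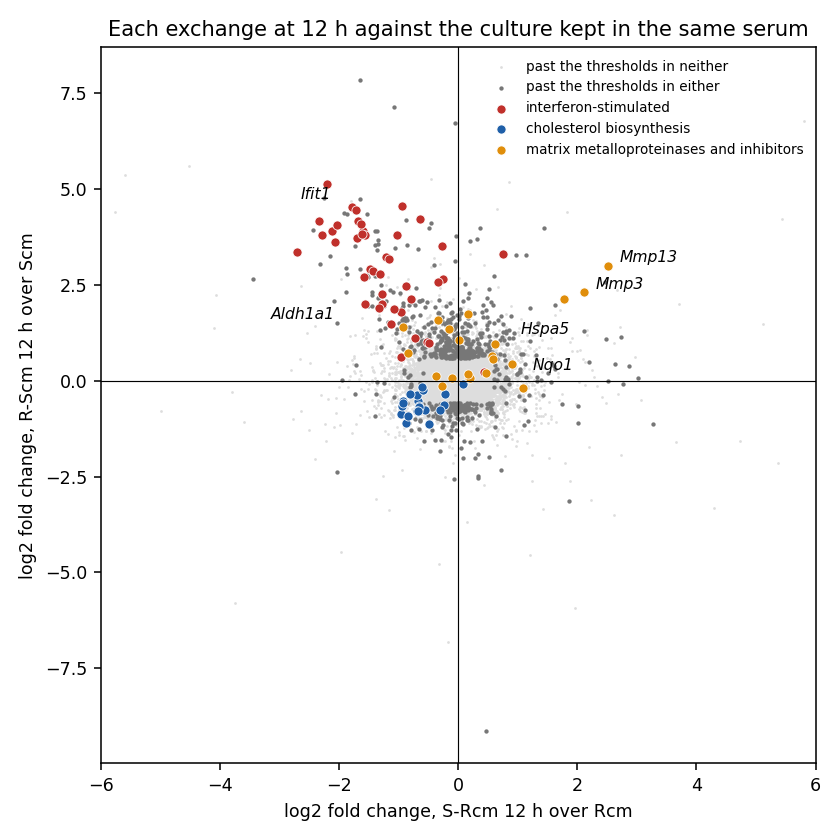
Log2 fold change of R-Scm 12 h over Scm (vertical axis) against that of S-Rcm 12 h over Rcm (horizontal axis) for the genes tested, with 3 gene lists in colour and 5 genes outside the horizontal range not shown. Most interferon-stimulated genes lie at the upper left, most cholesterol genes at the lower left, and Mmp13 and Mmp3 at the upper right.

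At 24 h several of these genes lay between R-Scm 12 h and Scm or near Scm. In R-Scm 24 h against R-Scm 12 h, 119 genes were called (0.774%), 51 higher (0.332%) and 68 lower (0.442%), and 309 without R-Scm 24 h replicate 1, which was closer to Rcm than the other 2 in the interferon and cholesterol lists. These calls depended on the fit, since there were 57 without R-Scm 24 h replicate 3, 71 without R-Scm 12 h replicate 3, 1 with glmTreat, 2 with edgeR on the compared groups alone and 132 with DESeq2 on those groups. Ifit1 was at 61.6, 22.5 and 18.3 CPM in R-Scm 24 h, with the first library well above the others (log2 fold change -1.85, adjusted p = 0.034). Of the interferon list 12 fell between 12 h and 24 h, and 36 without that library. Fdps was at 280, 161 and 163 CPM (0.96, adjusted p = 0.0066). Of the cholesterol list 7 rose, and 3 without that library, where the median went from 0.66 to 0.35.

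Clock, ATF4 and metalloproteinase genes were also called between the 2 times. Per2 was at 22.4, 12.7 and 13.7 CPM in R-Scm 24 h (log2 fold change against R-Scm 12 h 1.46, adjusted p = 0.0093) and Ciart at 6.24, 6.75 and 5.35 CPM (1.36, adjusted p = 0.0018), and 5 of 17 clock genes rose. In the ATF4 list 7 of 25 rose, and 12 without R-Scm 24 h replicate 1. Mmp13 was at 3.48, 19.2 and 15.6 CPM and Mmp3 at 117, 318 and 275 CPM, both called lower than at 12 h (-2.43 and -2.18), with replicate 1 the lowest. In R-Scm 24 h against Scm 91 genes were called (0.592%), 78 higher (0.507%) and 13 lower (0.0845%), and among the higher were 22 of 42 interferon-stimulated genes. Without R-Scm 24 h replicate 1 there were 77 calls, 14 of them in that list. Of the cholesterol genes edgeR called 0 in that comparison, with 0 of 21 at an unadjusted p under 0.05. Without R-Scm 24 h replicate 1 it again called 0, with 10 of 21 at an unadjusted p under 0.05 and a median of -0.28. DESeq2 was not run on this comparison. These comparisons share the R-Scm 12 h or the Scm libraries with the main one.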

How the data were processed

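The authors extracted RNA with an RNeasy kit, prepared paired-end libraries with the ABclonal mRNA-seq kit, sequenced them on a NovaSeq and used HISAT2 for alignment to the mouse genome build GRCm38. They deposited raw counts per gene for 55487 genes and 18 libraries, and the counting tool and its use of strand are not given in the sources used here. Columns were matched to titles by group, and 0 columns were left out. Counts were kept where edgeR's filterByExpr passed them (15381 genes), scaled by TMM and fitted with a robust quasi-likelihood model over all 18 libraries (12 residual degrees of freedom, edgeR 4.0.16, limma 3.58.1, R 4.3.3). Alternatives used DESeq2 1.42.0. Figures were drawn with matplotlib 3.10.9 in Python 3.11.15. CPM use TMM-scaled library sizes, and reads carry no molecular identifiers, so that limits from counts cover counting error only. The steps were tested on simulated data. The members and gene lists were chosen with earlier results of these data known, so that no test was made over a list. Genes were named by 3 rules: the 12 largest rises and 12 largest falls among calls with at least 1 CPM in the higher group and no overlap between libraries, up to 6 called members of each list by size, and a set of lipid, ferroptosis and matrix genes. Other members of a list, and genes outside the rules, were picked after their values were seen. Replicates of a group differed beyond counting noise in every pair (chi-square per degree of freedom 9.61 to 42.7). Some genes of these lists are counted in them but are not reported here by name.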

Additional observations from a re-analysis of the deposited data

Results flagged for a closer look

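The difference between R-Scm 12 h against Scm and S-Rcm 12 h against Rcm was tested as an interaction, and 472 genes passed both thresholds. Among the genes with the largest changes in R-Scm 12 h, this difference was positive, on the log2 scale, for Ifi205 (9.50), Sp100 (8.22), Oas2 (7.34), Tgtp2 (7.03), Gm18852 (6.40), Ifit1 (6.32), Ifi44l (6.29), Mx2 (6.19), Zbp1 (6.15), Tgtp1 (6.13), Ddx60 (5.88) and Rsad2 (5.50). Ifi205 and Sp100 had 0 counts in the 3 Scm libraries, so that these fitted values are no bounds, and their levels in R-Scm 12 h were at least 26.6-fold and 16.3-fold higher with a floor of 3 counts over the group. Tgtp1, Tgtp2 and Gm18852 share 87.7%, 85.2% and 97.8% of their 75-base stretches with other genes, and their counts may be split between them. The difference was negative for Nnt (-5.01), Mlph (-2.83), Nfatc2 (-2.51), Acvr2b (-2.49), Gm12758 (-2.28) and Egr3 (-1.95). The value of Nnt belongs to 1 of its 2 identifiers. The difference contains the R-Scm 12 h contrast by which all these genes were picked, so that its sign and size here are no separate support. In groups of 3 no test of outlying libraries was made.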

How the results depend on the processing

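Of 106 called genes among the 114 named, 35 kept the call under every alternative tried. Of 2127 gene values, 1832 stayed on their side of the thresholds in the same direction, 289 lost the call and 4 gained it, all of Slc7a11. After correction for GC content and gene length, added once the data had been seen, the values of Gpx4 (0.15) and Tfrc (-0.039) changed sign, neither being called. R-Scm 12 h against Scm gave 676 calls, 1148 without the fold threshold, 322 at an adjusted p under 0.01, 140 with glmTreat and 353 to 770 with 1 library left out, the lowest without R-Scm 12 h replicate 3. S-Rcm 12 h against Rcm gave 134 calls, 34 at the stricter p, 11 with glmTreat, 308 and 357 with DESeq2 on all libraries and on the compared groups, and 27 to 209 with 1 library left out. The difference gave 472 calls, 186 at the stricter p, 166 with glmTreat, 880 and 1209 with DESeq2, and 258 to 1598 with 1 left out. R-Scm 24 h against R-Scm 12 h gave 119 calls, 42 at the stricter p, 1 with glmTreat, 230 with DESeq2 on all libraries, 2 with edgeR on the compared groups and 57 to 309 with 1 left out. Medians of marker lists with no gene left under a filter were not computed. The cause of these moves was not tested. The fits of Rcm against Scm, R-Scm 12 h against Rcm and R-Scm 24 h against Scm with a library left out were also added at that stage. Between libraries of equal title number, correlations of the deviations were -0.025, -0.043 and 0.06. A replicate block on the title numbers gave 652 calls in the main comparison. The count columns of R-Scm 12 h skip a number that the titles do not, so that these values cannot show whether samples were paired. Called genes differed in GC content, with medians of 46.4% for the higher and 54.8% for the lower calls against 49.5% for all. With 14534906 counts in the smallest library, genes under about 1 CPM rested on few counts.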

Other observations

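Genes outside the lists, picked after their values were seen, extended some of the groups. Hspa5, the main chaperone of the endoplasmic reticulum, was at 356, 354 and 363 CPM in Scm and at 829, 837 and 644 CPM in R-Scm 12 h (log2 fold change 1.11, SE 0.16, edgeR adjusted p = 0.000579), and at 437, 429 and 393 against 734, 773 and 769 CPM in Rcm and S-Rcm 12 h (0.85, adjusted p = 0.018). It thus rose in both exchanges and was back at 377, 393 and 375 CPM in R-Scm 24 h. Cd274, encoding PD-L1, was at 1.18, 0.555 and 0.756 against 4.10, 4.01 and 5.58 CPM (2.42, SE 0.26). H2-K1, a heavy chain of MHC class I, was at 26.4, 25.2 and 17.9 against 42.1, 43.0 and 61.2 CPM (1.07, SE 0.17), and Nlrc5, which drives class I genes, at 2.14, 1.53 and 2.47 against 3.72, 7.20 and 8.28 CPM (1.64, SE 0.41).

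Among secreted factors, Inhba, an activin subunit, was at 103, 78.0 and 95.9 against 206, 215 and 304 CPM (1.39, SE 0.20), and Has2, which makes hyaluronan, at 3.90, 4.37 and 4.05 against 11.8, 11.2 and 14.4 CPM (1.60, SE 0.36). Both lay above Scm in each library. Has1, another synthase of hyaluronan, was at 1.55, 0.624 and 0.344 against 0.164, 0.206 and 0.123 CPM (-2.33, SE 0.58) and was called in 9 of 15 alternatives. Ppbp, a platelet-type chemokine, was at 1.23, 1.73 and 1.65 against 11.7, 9.42 and 51.3 CPM, with R-Scm 12 h replicate 3 far above the other 2 (3.97, SE 0.57).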
